A study of Mus musculus with 88 samples.

Results

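The perilipins and the CIDE proteins are the classical protein families of the lipid droplet surface. The 8 genes described here, Plin1, Plin2, Plin3, Plin4, Plin5, Cidea, Cideb and Cidec, were chosen by their names in the deposited count table, 8 of 24453 genes. The choice was made with the KO-WT values of Cidec and Plin4 in kidney in view, so values of that comparison are given as a description without a test. Bulk polyadenylated RNA was sequenced from 4 hindlimb muscles (soleus, tibialis, gastrocnemius and EDL, the extensor digitorum longus) and from heart, liver, kidney, lung and spleen. The tissues come from 5 Cdh15 knockout (KO) and 5 wild-type (WT) mice, all male C57BL/6NTac, aged 65 to 85 days, and a mouse is named here by its number in the labels. There are 5 KO and 5 WT libraries of a tissue, but 4 WT libraries of kidney and of spleen, 88 in all. Every mouse, KO or WT, had been fasted for 18 h, so no fed level is given. Cdh15 encodes M-cadherin, through which muscle precursors and fibres adhere. The sources used here do not say how the KO allele was built.

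Lipid droplets store triglycerides and sterol esters under a coat of phospholipid and protein. Perilipins sit on that coat and set how far lipases reach the stored lipid. Plin1 is the perilipin of fat cells, where it holds back the lipase activator Abhd5 until fasting signals release it. Plin4 coats small, newly formed droplets and is also abundant in muscle. Plin5 belongs to tissues that burn fat, where it ties droplets to mitochondria. Plin2 is found on droplets in most cells, and Plin3 is a cytosolic protein that moves to young droplets. CIDE proteins gather where droplets touch and pass lipid between them. Cidea is known from brown fat, Cideb from liver, where it takes part in loading lipid onto lipoproteins, and Cidec from white fat, where it builds large droplets. Several of these genes are targets of the peroxisome proliferator-activated receptors (PPARs), nuclear receptors for fatty acids that act in fasted liver, heart and muscle.

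The 3 genes Plin4, Plin5 and Plin3 lie on the minus strand of chromosome 17 in mm10, at 56100591 to 56109802 for Plin4, 56111601 to 56117298 for Plin5 and 56278962 to 56290511 for Plin3. Plin4 and Plin5 are separated by 1798 bases, and Plin3 starts 161663 bases beyond Plin5. Plin1 lies at 79721164 to 79732776 on chromosome 7, Plin2 at 86656565 to 86670059 on chromosome 4, Cidec at 113424636 to 113435755 on chromosome 6 and Cideb at 55754055 to 55758424 on chromosome 14, all on the minus strand. Cideb overlaps Nop9 on the opposite strand by 1580 bases, Cidea overlaps B430212C06Rik by 540 and Plin4 overlaps Hdgfrp2 by 14. The sources used here do not say whether the counting used the strand, so reads in these overlaps could belong to either gene. In gastrocnemius, where Cideb had no read in any library, Nop9 stood at 3.35 RPKM in KO and 3.43 RPKM in WT mice.

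The 250 bases upstream of the RefSeq starts of Plin2, Plin3, Plin5 and Cidec are shown because these starts hold the closest matches among the genes examined to the direct repeat that PPAR and its partner RXR are known to bind. The sequences are from RefSeq on GRCm38.p6, the assembly known as mm10, written 5′ to 3′ on the gene's strand. The repeat was spelled as AGGTCA, 1 base of any kind and AGGTCA again, and capitals mark the window closest to it on either strand.
Plin2, chr4:86670060-86670309, minus strand: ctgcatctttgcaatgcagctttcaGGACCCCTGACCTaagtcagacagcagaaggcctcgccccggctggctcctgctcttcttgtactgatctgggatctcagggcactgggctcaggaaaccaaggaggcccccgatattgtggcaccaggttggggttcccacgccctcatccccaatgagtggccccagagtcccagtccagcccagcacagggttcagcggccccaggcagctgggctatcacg
Plin3, chr17:56290512-56290761, minus strand: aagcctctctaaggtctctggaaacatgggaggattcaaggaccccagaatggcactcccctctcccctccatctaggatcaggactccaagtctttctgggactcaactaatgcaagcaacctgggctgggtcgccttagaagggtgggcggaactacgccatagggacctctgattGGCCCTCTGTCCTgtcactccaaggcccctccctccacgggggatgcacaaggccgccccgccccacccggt
Plin5, chr17:56117549-56117798, minus strand: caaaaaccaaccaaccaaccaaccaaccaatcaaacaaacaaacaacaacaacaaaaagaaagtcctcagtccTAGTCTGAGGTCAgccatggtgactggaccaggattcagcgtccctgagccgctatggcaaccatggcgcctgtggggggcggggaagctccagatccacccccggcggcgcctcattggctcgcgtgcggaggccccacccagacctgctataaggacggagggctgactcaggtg
Cidec, chr6:113435761-113436010, minus strand: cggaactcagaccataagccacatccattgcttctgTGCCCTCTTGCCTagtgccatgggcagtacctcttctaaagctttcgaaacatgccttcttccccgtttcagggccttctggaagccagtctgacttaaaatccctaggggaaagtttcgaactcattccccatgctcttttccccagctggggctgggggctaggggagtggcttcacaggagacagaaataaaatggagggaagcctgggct
The window of Plin2 differed from the repeat at 2 positions and lay -225 to -213 bases from the start. Those of Plin3, Plin5 and Cidec differed at 3 positions. Among 32851 windows of the same length from 27025 genes, 3.24% held a match with at most 2 mismatches and 21.3% one with at most 3. Plin5 and Cidec each have a second RefSeq start, with upstream bases at chr17:56117299-56117548 and chr6:113434765-113435014. The closest window there differed at 4 positions for both genes. For Plin5 that second stretch adjoins the gene end given above, and the one shown lies further out. The windows of Plin1, Plin4 and Cideb held no match within 3 mismatches, which says only that these letters are absent there. Cidea is not reported here. The search was chosen with the sequences in view, and a match is not a binding site.

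Libraries held 8205964 to 25144410 counts, with a median of 19024260. In muscle, Cdh15 stood at 0.371 to 1.43 RPKM (reads per kilobase of exon and per 1000000 reads of the library) in KO mice and 4.11 to 8.11 RPKM in WT mice, and the other tissues held 0 to 2 Cdh15 reads per library of either genotype. Summed marker genes of heart, kidney, liver, lung, spleen and skeletal muscle were highest in the tissue the labels name, and a few libraries stood apart. In KO soleus 3805666 the fast myosin gene Myh4 stood at 15.1 RPKM, against 4533 to 6357 in the other 4 KO and 4693 to 10858 in the 5 WT soleus libraries. KO spleen 3817943 held 11.2 RPKM of the fat cell hormone gene Adipoq, against 0.0654 to 0.281 in the other 4 KO and 0.295 to 0.579 in the 4 WT spleens. The main results on members in soleus and spleen are given with and without them, as are the correlations of Cidec, Plin1 and Plin4. Tissue comparisons of KO mice share their spread over all 9 tissues, so KO spleen 3817943 enters their SE and p. Those SE and p are not listed without it.

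The make-up of the family differed among tissues, though some shared the leading gene. RPKM, which is per length, lets the genes be set side by side. Of the 8 genes summed, Plin4 made up 74.8 ± 1.44% in KO and 74.7 ± 3.60% in WT gastrocnemius (SD, n = 5 each), and it led in the other skeletal muscles too. Plin2 made up 61.2 ± 5.08% in KO and 60.7 ± 3.95% in WT liver, and Cideb most of the rest (27.7 ± 4.05% in KO and 28.5 ± 3.56% in WT). Kidney held the reverse order on average, with Cideb at 43.8 ± 7.14% in KO (n = 5) and 51.9 ± 6.44% in WT mice (n = 4) and Plin2 at 37.0% in KO and 30.5% in WT. Plin2 also led in lung, at 63.2% in KO and 64.6% in WT mice, and in spleen, at 55.2% in KO and 56.4% in WT. Plin3 came next in both, at 21.6% in KO and 21.6% in WT lung, and 36.8% in KO and 41.1% in WT spleen. Heart was mixed, with Plin3 at 25.8% in KO and 27.7% in WT, Plin4 at 25.3% in KO and 23.2% in WT, Plin5 at 20.2% in KO and 20.4% in WT, Plin2 at 17.1% in KO and 17.2% in WT. The summed level was highest in liver, 663 ± 123 RPKM in KO and 631 ± 83.0 RPKM in WT mice, and lowest in spleen, 50.9 ± 3.34 RPKM in KO (n = 5) and 43.6 ± 9.84 RPKM in WT mice (n = 4). In bulk tissue, fewer cells of a type and less RNA per cell cannot be told apart.

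**Figure D1:**
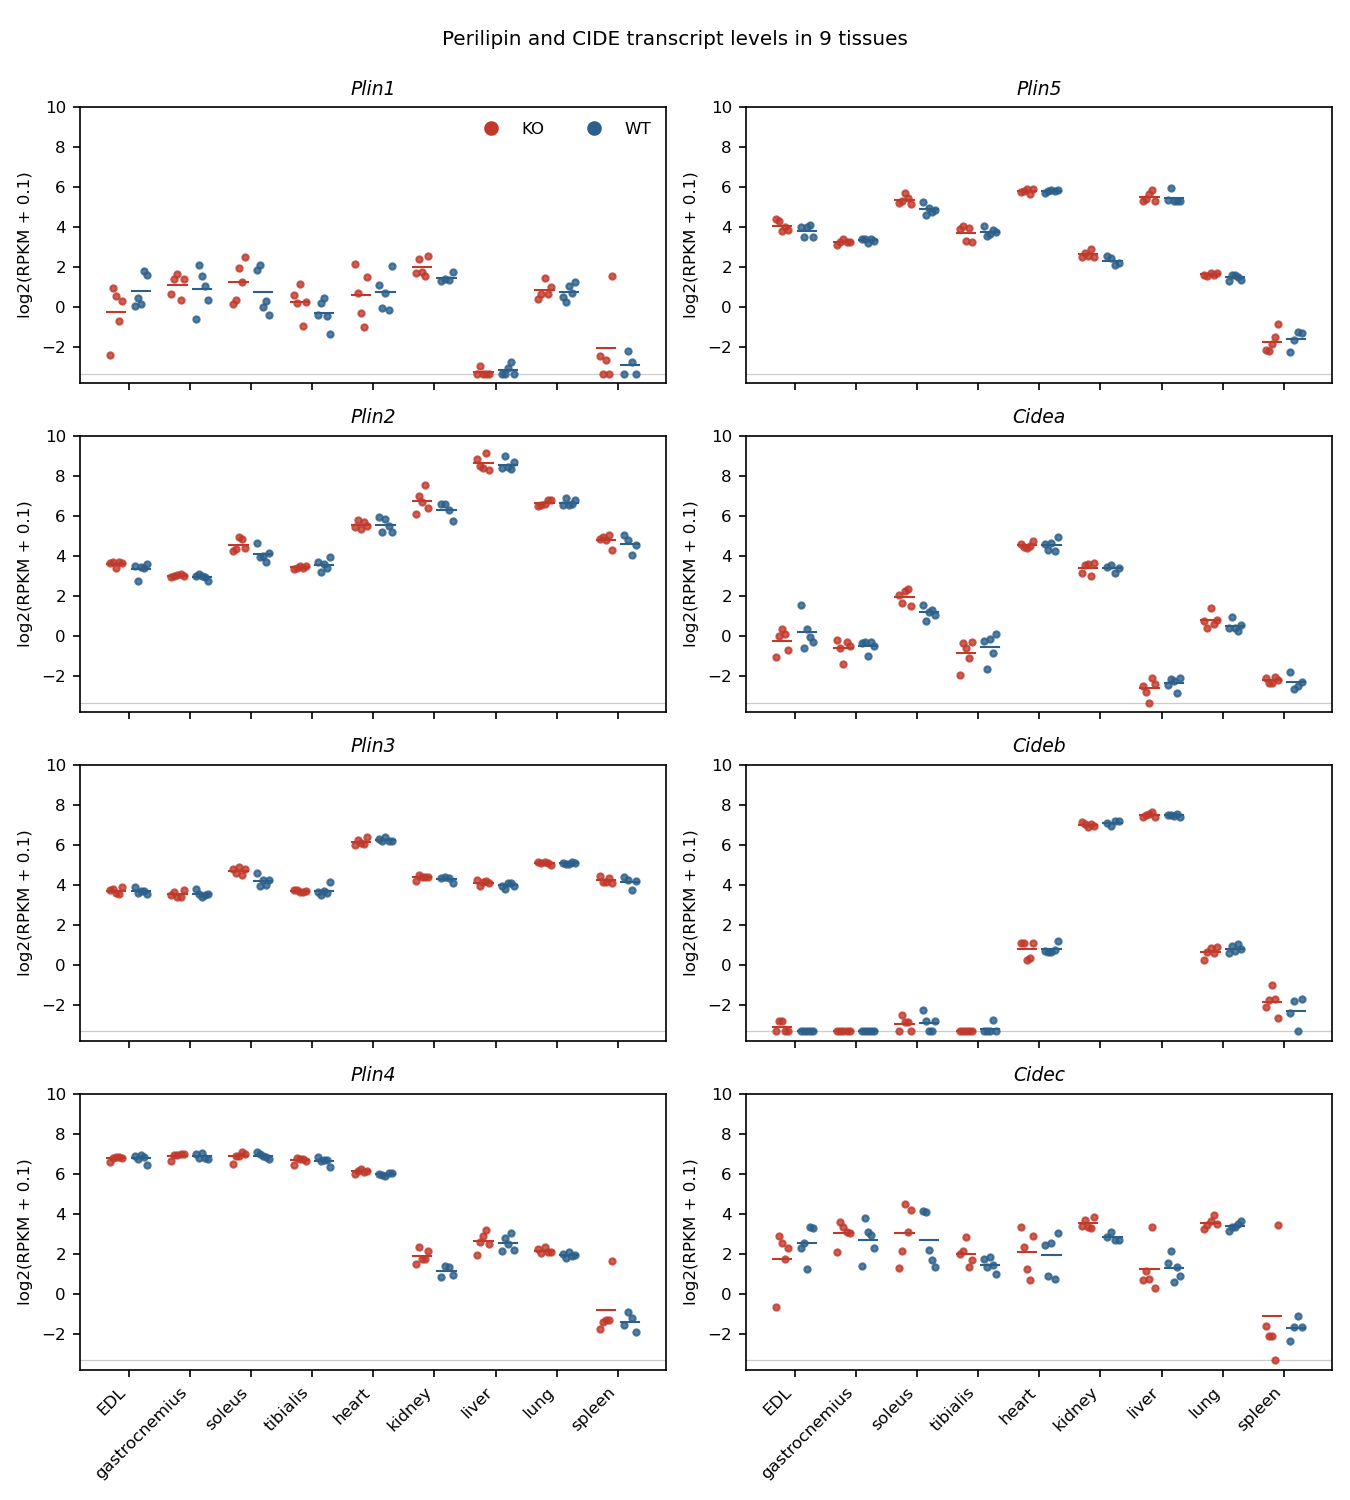
Transcript levels of the 8 genes as log2(RPKM + 0.1) in each library (points) of 9 tissues, KO left of WT, with the group mean as a bar and the grey line at 0 RPKM. Plin4 lies highest in the 4 skeletal muscles, Cideb in liver and kidney, Plin2 in liver and Cidea in heart, while Plin1 and Cidec spread widely among mice of a muscle.

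Plin4 stood highest in striated muscle. Its WT means were 121 ± 11.2 RPKM in soleus, 118 ± 12.3 in gastrocnemius, 110.0 ± 14.6 in EDL and 100.5 ± 11.9 in tibialis (SD, n = 5 each), whose ranges overlapped from each to the next. Heart followed at 63.5 ± 3.21 RPKM, below every skeletal muscle library, and then came liver (5.86), lung (3.76), kidney (2.13) and spleen (0.294) without overlap between neighbours. In counts scaled by TMM factors, which correct for the share taken by a few very abundant genes, gastrocnemius ranked above soleus and the other 7 ranks were the same.

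Plin5 was high in heart, liver and soleus. Its WT level was 55.9 ± 2.01 RPKM in heart and 44.1 ± 9.55 in liver, whose ranges overlapped, and 29.8 ± 5.47 in soleus. The other muscles stood lower, EDL at 14.3, tibialis at 13.6 and gastrocnemius at 9.998 RPKM, and kidney (4.95), lung (2.71) and spleen (0.242) lower still. This order was the same in KO mice and under TMM scaling.

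Plin2, the general droplet coat, was read in every library. WT liver held 385 ± 75.3 RPKM, above every other tissue, and lung (102), kidney (82.0) and heart (47.7) followed, with overlap between lung and kidney and between kidney and heart. Spleen stood at 24.8 RPKM, and the skeletal muscles lay between 7.72 in gastrocnemius and 17.3 in soleus. TMM scaling moved 7 of the 9 ranks of Plin2, putting lung below kidney and heart, and spleen below soleus, tibialis and EDL. In RPKM the highest tissue mean was 49.9 times the lowest. Plin3 was the most even member on this scale: its highest WT mean, 76.0 ± 4.67 RPKM in heart, was 6.47 times its lowest, 11.7 ± 1.33 RPKM in gastrocnemius. Lung stood at 34.1 ± 0.749 RPKM, apart from both heart and the rest in RPKM only. TMM scaling kept heart first and moved the other 8 ranks, with lung, kidney and spleen under all 4 skeletal muscles.

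Among the CIDE genes, Cideb was close to an on and off gene. It stood at 178 ± 5.38 RPKM in WT liver (n = 5) and 138 ± 10.4 in WT kidney (n = 4), whose ranges did not overlap, and at 1.67 in lung and 1.65 in heart, which overlapped. Over the 20 KO and the 20 WT skeletal muscle libraries no library held more than 2 Cideb reads, under the 3 reads per library that a count of 0 allows. Cidea, at 67343564 to 67367794 on the plus strand of chromosome 18, was highest in heart at 23.8 ± 4.70 RPKM and next in kidney at 10.4 ± 1.30 RPKM, with soleus at 2.20 ± 0.462 RPKM and the other tissues at 1.35 or lower. TMM scaling kept the first 3 ranks of Cidea and moved 5 others, and for Cideb it exchanged lung and heart. Liver and spleen held 0 to 4 Cidea reads per library. The brown fat gene Ucp1 was read in heart and kidney as well. It spanned 0.804 to 31.1 RPKM in KO and 2.88 to 33.8 RPKM in WT hearts. Cidea spanned 20.7 to 26.5 RPKM in KO and 19.1 to 30.6 RPKM in WT hearts. Both genes ranked the WT hearts in the same order, but the KO hearts in different orders. In kidney Ucp1 spanned 5.75 to 17.0 RPKM in KO and 3.69 to 10.997 RPKM in WT mice, and Cidea 8.001 to 12.5 RPKM in KO and 8.68 to 11.8 RPKM in WT mice. Of 8 brown adipocyte markers, Lhx8 alone was at 0 in every kidney library and 0 were at 0 in all hearts. Their sum spanned 496 to 572 CPM in KO and 524 to 605 CPM in WT hearts, and 211 to 243 CPM in KO and 191 to 237 CPM in WT kidneys. It was also 480 to 802 CPM in KO and 424 to 870 CPM in WT livers, which held 0 to 1 Ucp1 reads. In soleus it spanned 239.9 to 433 CPM in KO and 201 to 252 CPM in WT mice. The sum is therefore not particular to tissues with Ucp1 and Cidea. The part of brown fat cells in these levels was not tested.

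Plin1 and Cidec, the pair known from white fat, spread widely among mice. WT means of Cidec were 10.5 ± 1.35 RPKM in lung and 8.86 ± 7.61 in soleus, and of 8 neighbouring pairs of tissues 7 overlapped. WT means of Plin1 were 2.65 ± 0.405 RPKM in kidney (n = 4) and 2.17 ± 1.46 in gastrocnemius, with 7 of 8 pairs overlapping too. TMM scaling moved the highest tissue to soleus for Cidec and to gastrocnemius for Plin1. Within WT soleus alone Cidec was at 2.43, 3.15, 4.41, 17.0 and 17.3 RPKM, with 2 mice high and 3 low.

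**Figure D2:**
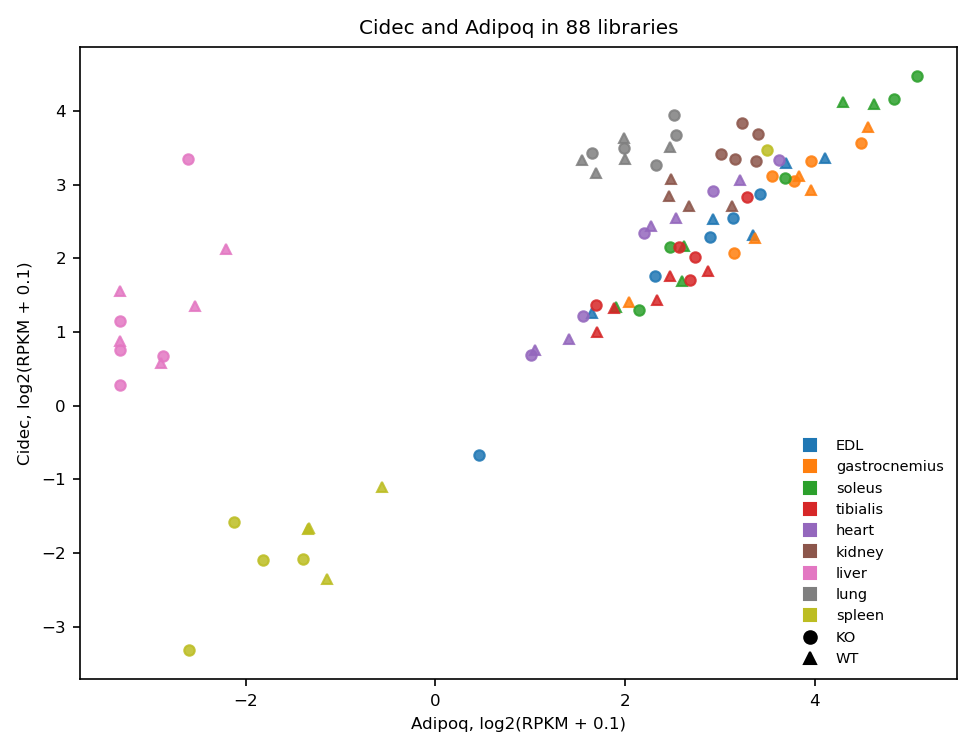
Cidec against the fat cell gene Adipoq, both as log2(RPKM + 0.1), in 88 libraries (KO circles, WT triangles, colours by tissue). Skeletal muscle libraries lie along a common slope. By the ratio of means, heart and kidney lie above it and lung further above. Liver has Cidec with almost no Adipoq, and KO spleen 3817943 lies far from the other 8 spleen libraries.

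Deviations of Cidec from its tissue and genotype mean followed those of white fat genes. They were taken on log2(CPM + 0.5), with CPM the counts per 1000000, over 14572 genes and 88 libraries, and genes of a library share its depth and composition. The 3 genes most like Cidec were Adipoq (Pearson r = 0.921), the fat cell protease gene Cfd (0.905) and Pck1 (0.891), an enzyme of glycerol synthesis in fat cells. For Plin1 they were Pck1 (0.912), Adipoq (0.908) and the activin receptor gene Acvr1c (0.883). Without KO spleen 3817943 these values were 0.887, 0.863 and 0.857 for Cidec and 0.887, 0.882 and 0.886 for Plin1. The ratio of mean Cidec to mean Adipoq was 0.652 in KO and 0.740 in WT soleus, and 0.659 in KO and 0.647 in WT in EDL. It was 0.904 in KO and 0.940 in WT heart, and 1.23 in KO and 1.09 in WT kidney. Lung had a ratio of 2.57 in KO and 2.75 in WT mice, and in liver 31 to 220 Cidec reads per library stood beside 0 to 2 Adipoq reads.

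The other members kept other company over the same 88 libraries. Plin2 was most like Slc25a20 (0.717), Acadvl (0.666) and Decr1 (0.659), which carry fatty acids into mitochondria or oxidise them. Plin5 was most like Hsdl2 (0.672), Pank1 (0.585), an enzyme of coenzyme A synthesis, and Acadl (0.569), an acyl-CoA dehydrogenase. Plin4 was most like Fabp4 (0.694), a fatty acid binding protein of fat and endothelial cells, Ces1d (0.654) and Srrm1 (0.642). The likeness of Plin4 rested on KO spleen 3817943, without which it was 0.256 to Fabp4, 0.294 to Ces1d and 0.428 to Srrm1. Values for Plin3, Cidea and Cideb did not exceed 0.643. Ucp1 ranked 5 among the genes most like Cidea (0.454). Across the 9 WT tissue means of log2(RPKM + 0.1), over 15624 genes, Plin2 was most like Nqo2 (0.995), Rtp3 (0.982) and the lipase inhibitor gene G0s2 (0.981), and Cideb was most like Fah (0.996) and Rab17 (0.993). Over the same means Ucp1 ranked 8 for Cidea (0.924). All of these correlations are descriptions and carry no test.

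Soleus is known as the slow oxidative muscle of the hindlimb. It carried more Cidea, Plin5, Plin2 and Plin3 than EDL, gastrocnemius and tibialis, in KO and in WT mice alike. KO soleus 3805666 held the fast myosin Myh4 at 15.1 RPKM and the slow myosin Myh7 at 1552 RPKM. Myh4 exceeded Myh7 in all other soleus libraries. There Myh4 spanned 4533 to 6357 RPKM in KO and 4693 to 10858 RPKM in WT mice. Myh7 spanned 549 to 914 RPKM in KO and 309 to 683 RPKM in WT mice. The contrasts are therefore not read as slow against fast muscle, and the part of fibre content was not tested. Cidea stood at 2.76, 3.04, 4.09, 4.60 and 5.01 RPKM in the 5 KO soleus libraries, against a lowest, median and highest value of 0.160, 0.606 and 1.19 in the 15 other KO muscle libraries. In WT mice it stood at 1.59, 2.01, 2.19, 2.39 and 2.84 RPKM in soleus, against 0.218, 0.712 and 2.82 in the other muscles. All KO soleus values lay above all other KO muscle values, and in WT mice 1 EDL library reached the soleus range. That library, of WT mouse 3793543, also held Ucp1 at 2.82 RPKM (86 reads), against 0 to 0.452 RPKM in the other EDL libraries. The part of brown fat cells in its value was not tested. The log2 fold change was 2.46 (SE 0.16, edgeR adjusted p = 1.1e-16) in KO and 1.40 (SE 0.22, edgeR adjusted p = 4.67e-06) in WT mice.

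Plin5 stood at 35.9, 37.3, 38.8, 44.2 and 51.1 RPKM in KO soleus, against 8.56, 14.0 and 21.2 in the other KO muscles. In WT mice it stood at 24.2, 26.5, 28.8, 31.3 and 38.4 RPKM in soleus, against 9.01, 11.7 and 17.2 in the other muscles. Neither genotype showed overlap. Its log2 fold change was 1.52 (SE 0.10, edgeR adjusted p = 1.8e-16) in KO and 1.14 (SE 0.09, edgeR adjusted p = 6.87e-13) in WT mice.

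Plin3 stood at 22.7, 23.8, 27.5, 27.9 and 29.2 RPKM in KO soleus, against 10.5, 12.6 and 14.7 in the other KO muscles. WT soleus held 15.5, 15.7, 19.0, 19.1 and 23.9 RPKM, against 10.4, 12.2 and 17.5 in the other WT muscles. The groups were apart in KO mice, and in WT mice 1 tibialis library lay within the soleus range. The log2 fold change was 0.89 (SE 0.06, edgeR adjusted p = 1.75e-15) in KO and 0.46 (SE 0.08, edgeR adjusted p = 4.53e-05) in WT mice. Plin2 stood at 19.0, 20.4, 21.2, 28.6 and 30.7 RPKM in KO soleus, against 7.70, 10.5 and 12.9 in the other KO muscles, and at 12.8, 15.3, 15.8, 17.6 and 24.8 RPKM in WT soleus, against 6.56, 10.5 and 15.3 in the other WT muscles. Ranges overlapped in WT mice only. Its log2 fold change was 0.99 (SE 0.13, edgeR adjusted p = 2.25e-08) in KO and 0.70 (SE 0.14, edgeR adjusted p = 0.000218) in WT mice.

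Plin4, whose ranges overlapped among the hindlimb muscles, had log2 fold changes of -0.07 (SE 0.25, edgeR adjusted p = 0.875) in KO and 0.04 (SE 0.11, edgeR adjusted p = 0.895) in WT mice. Cidec had log2 fold changes of 0.84 (SE 0.496, edgeR adjusted p = 0.176) in KO and 0.65 (SE 0.36, edgeR adjusted p = 0.23) in WT mice. Plin1 had log2 fold changes of 0.80 (SE 0.45, edgeR adjusted p = 0.16) in KO and 0.33 (SE 0.38, edgeR adjusted p = 0.623) in WT mice, or -0.08 without WT mouse 3793543. In all, 5 of 8 members passed in KO mice, where 44.0% of 16710 genes did, and 5 of 8 in WT mice, where 18.1% of 16842 genes did. The fifth was Cideb, on at most 2 reads per library, for which no fold is given and which DESeq2 did not call. Without KO mouse 3805666 the count in KO mice was 4, with log2 fold changes of 2.43 for Cidea, 1.39 for Plin5, 0.90 for Plin2 and 0.82 for Plin3. The share of all genes that passed without that mouse is not given here.

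Several genes that make and break down triglyceride were higher in soleus as well, where 44.0% of all genes passed in KO and 18.1% in WT mice. Of 10 lipolysis genes, 6 were higher and 0 lower in soleus of KO mice (median log2 fold change 0.44, against 0.02 over all genes), and 4 higher and 0 lower in WT mice (0.28, against -0.01). The monoglyceride lipase Mgll had log2 fold changes of 1.60 in KO and 1.17 in WT mice, G0s2, an inhibitor of the main triglyceride lipase, 1.22 in KO and 0.93 in WT, and the hormone-sensitive lipase Lipe 0.92 in KO and 0.69 in WT. Of 15 tested genes of triglyceride synthesis and droplet formation, 7 were higher and 3 lower in KO soleus and 6 higher and 1 lower in WT soleus. Dgat2, which makes the last step of triglyceride synthesis, had log2 fold changes of 2.66 in KO and 2.13 in WT mice, and Agpat2 had 1.69 in KO and 1.15 in WT, while the phosphatidate phosphatase Lpin1 had -1.15 in KO mice. Of 14 PPAR regulators and targets, 9 were higher and 3 lower in KO soleus and 7 higher and 2 lower in WT soleus, with the fatty acid carrier Fabp3 at a log2 fold change of 2.29 in KO and 1.73 in WT, the receptor Ppara at 1.99 in KO and 1.67 in WT and the fatty acid transporter Cd36 at 1.68 in KO and 1.28 in WT. White adipocyte markers were positive for 12 of 12 genes in both genotypes (median 0.90 in KO and 0.497 in WT mice), and their part in these differences was not tested. Over all genes 51.7% were positive in KO and 47.0% in WT mice. Without KO mouse 3805666 the median of the white adipocyte markers in KO mice was 0.66 and that of the lipolysis genes 0.44, and 8 PPAR genes were higher and 2 lower. The share of all genes that passed in that fit is not given here.

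**Figure D3:**
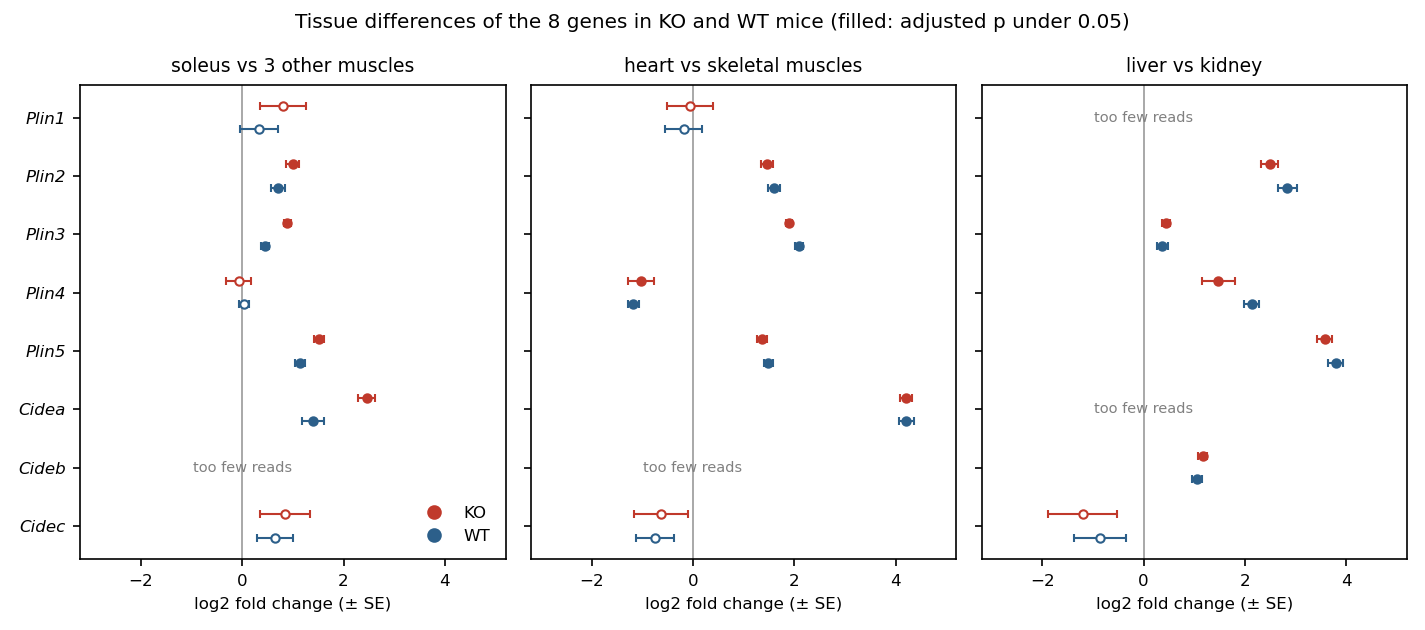
Log2 fold changes (± SE) of the 8 genes in 3 tissue comparisons, KO above WT, filled where the edgeR adjusted p was under 0.05. With TMM factors KO and WT mice gave the same direction for every member that passed, and Plin4 is the one called member below 0 in heart.

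Heart set against the 4 skeletal muscles showed Cidea, Plin3, Plin5 and Plin2 higher and Plin4 lower. Cidea stood at 20.7, 22.1, 22.7, 24.5 and 26.5 RPKM in KO hearts, against 0.160, 0.714 and 5.01 (lowest, median and highest of 20) in KO muscles. WT hearts held 19.1, 19.7, 24.3, 25.4 and 30.6 RPKM, against 0.218, 0.762 and 2.84 in WT muscles. Every heart library lay far above every muscle library. Its log2 fold change was 4.21 (SE 0.12, edgeR adjusted p = 1.48e-31) in KO and 4.21 (SE 0.15, edgeR adjusted p = 5.71e-27) in WT mice.

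Plin3 was at 64.1, 65.6, 67.6, 75.9 and 84.9 RPKM in KO and 72.5, 72.8, 73.4, 77.7 and 83.4 RPKM in WT hearts, again above every skeletal muscle library of its genotype. Its log2 fold change was 1.90 (SE 0.06, edgeR adjusted p = 9.76e-31) in KO and 2.09 (SE 0.07, edgeR adjusted p = 8.51e-28) in WT mice. Plin5 spanned 50.6 to 60.0 RPKM in KO and 52.6 to 57.4 RPKM in WT hearts, with log2 fold changes of 1.36 (SE 0.09, edgeR adjusted p = 5.45e-17) in KO and 1.49 (SE 0.09, edgeR adjusted p = 1.79e-19) in WT mice. Plin2 spanned 40.3 to 56.4 RPKM in KO and 36.3 to 62.7 RPKM in WT mice, with log2 fold changes of 1.46 (SE 0.12, edgeR adjusted p = 1.03e-14) in KO and 1.60 (SE 0.12, edgeR adjusted p = 6.25e-15) in WT mice.

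Plin4 went the other way, at 64.4, 68.8, 70.5, 71.0 and 75.3 RPKM in KO and 58.5, 62.5, 64.6, 64.9 and 67.0 RPKM in WT hearts. All 10 hearts lay under the lowest skeletal muscle library of either genotype, at 81.1 RPKM. The log2 fold change was -1.02 (SE 0.26, edgeR adjusted p = 0.00069) in KO and -1.18 (SE 0.11, edgeR adjusted p = 1.38e-12) in WT mice. Cidec had log2 fold changes of -0.63 (SE 0.53, edgeR adjusted p = 0.287) in KO and -0.75 (SE 0.38, edgeR adjusted p = 0.0765) in WT mice, where it passed without WT mouse 3817948 (-1.09, edgeR adjusted p = 0.0246, with 0.0246 to 0.418 over all alternatives). Plin1 had log2 fold changes of -0.06 (SE 0.46) in KO and -0.19 (SE 0.37) in WT mice and did not pass. White adipocyte markers were lower in heart for 7 of 12 genes and higher for 4 in each genotype, and their part in these values was not tested. In total 6 of 8 members passed in each genotype, Cideb being the sixth, beside 74.3% of 16710 genes in KO and 73.0% of 16842 genes in WT mice. The members' share is near that background, so the count is no result about them.

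In heart the shares of the synthesis and lipolysis lists that passed were near or under that of all genes (74.3% in KO and 73.0% in WT mice), so their counts are no result about the lists. Dgat2 had log2 fold changes of 2.69 in KO and 2.90 in WT mice and Agpat2 2.76 in KO and 3.002 in WT, while Lpin1 was lower, -2.73 in KO and -2.88 in WT. Of 15 tested genes of triglyceride synthesis and droplet formation, 5 were higher and 5 lower in KO hearts and 6 higher and 5 lower in WT hearts. Among lipolysis genes 5 of 10 were higher and 1 lower in each genotype, with Ces1d at a log2 fold change of 2.27 in KO and 2.11 in WT, Mgll at 2.04 in KO and 2.05 in WT and G0s2 at 1.57 in KO and 1.72 in WT. Of the PPAR regulators and targets, 10 of 14 were higher and 4 lower in each genotype. All values of this comparison rest on TMM factors: the ratio of mean deposited RPKM gave log2 values of -0.68 in KO and -0.82 in WT mice for Plin4 and 1.90 in KO and 2.08 in WT mice for Plin2.

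Liver and kidney are the organs of Cideb. Plin2 stood at 316, 333, 364, 468 and 568 RPKM in KO livers, against 69.4, 83.9, 103, 127 and 189.7 RPKM in KO kidneys. In WT mice the values were 323, 343, 344, 409.8 and 507 RPKM in liver, against 53.4, 79.8, 97.3 and 97.5 RPKM in kidney. Liver was above kidney without overlap in both genotypes, with log2 fold changes of 2.49 (SE 0.16, edgeR adjusted p = 1.66e-17) in KO and 2.84 (SE 0.19, edgeR adjusted p = 1.69e-16) in WT mice.

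Plin5 stood at 39.3, 39.4, 42.8, 50.6 and 58.3 RPKM in KO livers, against 5.62, 5.63, 5.81, 6.43 and 7.30 RPKM in KO kidneys. WT livers held 38.9, 39.4, 40.03, 41.2 and 61.2 RPKM, against 4.23, 4.43, 5.31 and 5.81 RPKM in WT kidneys. No library of one organ reached the other. Its log2 fold change was 3.58 (SE 0.15, edgeR adjusted p = 2.48e-25) in KO and 3.79 (SE 0.15, edgeR adjusted p = 1.79e-25) in WT mice.

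Plin4 was higher in liver by 1.47 (SE 0.33) in KO and 2.13 (SE 0.15) in WT mice, Cideb by 1.16 (SE 0.09) in KO and 1.06 (SE 0.10) in WT and, with TMM factors only, Plin3 by 0.44 (SE 0.08) in KO and 0.36 (SE 0.11) in WT on the log2 scale (largest edgeR adjusted p = 0.00267). The ratio of mean deposited RPKM, without TMM factors, gave smaller log2 values for Plin4 (0.79 in KO and 1.46 in WT mice), Cideb (0.48 in KO and 0.37 in WT), Plin2 (1.84 in KO and 2.23 in WT) and Plin5 (2.90 in KO and 3.16 in WT). For Plin3 the direction depends on the scaling, since its deposited RPKM, without TMM factors, was 17.3 in KO livers, against 20.7 in KO kidneys, and 15.8 in WT livers, against 19.6 in WT kidneys. Plin1 and Cidea were lower in liver, where no library held more than 2 and 3 reads of them, so no fold is given. Cidec had log2 fold changes of -1.20 (SE 0.68, edgeR adjusted p = 0.111) in KO and -0.86 (SE 0.51, edgeR adjusted p = 0.134) in WT mice. Without KO mouse 3805676, whose liver held 10.1 RPKM of Cidec, its value in KO mice was -2.19 (edgeR adjusted p = 0.0152, with 0.0152 to 0.257 over all alternatives). In all 7 of 8 members passed in each genotype, beside 73.7% of genes in KO and 70.9% in WT mice. The members' share is not far from that background, and nothing is read from the count.

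Counts of the pathway lists stand beside the same shares of all genes. Of 15 tested genes of triglyceride synthesis and droplet formation, 12 were higher and 2 lower in liver in each genotype. Agpat2 had log2 fold changes of 3.36 in KO and 3.47 in WT mice and the acyl-CoA synthetase Acsl1 2.75 in KO and 2.99 in WT. The monoacylglycerol acyltransferase Mogat1 was lower in liver, with log2 fold changes of -6.69 in KO and -6.33 in WT. Of 10 lipolysis genes, 6 were higher and 2 lower in liver in each genotype, with Aadac at a log2 fold change of 2.83 in KO and 2.71 in WT and Pnpla3 at -2.50 in KO and -2.54 in WT. The PPAR list was even, with 7 higher and 7 lower. White adipocyte markers were lower in liver for 9 of 12 genes and higher for 1 in each genotype, and their part in the values of Plin1, Cidea and Cidec was not tested.

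Between KO and WT mice no member passed the threshold by edgeR in the 8 tissues tested. The soleus came nearest. Cidea averaged 3.90 ± 0.971 RPKM in KO and 2.20 ± 0.462 RPKM in WT soleus (SD, n = 5 each), from the values per library given above, and only the highest WT library, mouse 3793543, entered the KO range. The log2 fold change was 0.78 (SE 0.20, edgeR adjusted p = 0.238). Plin3 averaged 26.2 ± 2.82 RPKM in KO and 18.6 ± 3.43 RPKM in WT soleus, with a log2 fold change of 0.44 (SE 0.11, edgeR adjusted p = 0.238), and the same WT mouse lay within the KO range. Plin5 averaged 41.5 ± 6.25 RPKM in KO and 29.8 ± 5.47 RPKM in WT mice, with a log2 fold change of 0.43 (SE 0.13, edgeR adjusted p = 0.238). For Plin2 the means were 24.0 ± 5.29 RPKM in KO and 17.3 ± 4.56 RPKM in WT soleus, with a log2 fold change of 0.37 (SE 0.16, edgeR adjusted p = 0.267). WT mouse 3793543 lay within the KO range for Plin5 and Plin2 as well.

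Cideb had too few reads to be tested in the 4 muscles. In soleus 0 of 7 tested members passed by edgeR, beside 0.00771% of 12965 genes, which was Cdh15 alone. At an unadjusted p under 0.05 stood 4 members, beside 17.2% of all genes, and the DESeq2 Wald test called Plin3 (adjusted p = 0.034, with 0.034 to 0.433 over all alternatives). The share of all genes that DESeq2 called in soleus is not given here, so nothing is read from that call. Without KO mouse 3805666, the soleus with almost no Myh4, the log2 fold changes were 0.73 for Cidea, 0.41 for Plin3, 0.35 for Plin5 and 0.29 for Plin2. Plin4 stood at 90.8, 118, 121, 126 and 137 RPKM in KO and 108, 113, 120.3, 127 and 136 RPKM in WT soleus, with overlapping ranges. Cidec stood at 2.36, 4.37, 8.42, 17.9 and 22.2 RPKM in KO soleus, against the 5 WT values above, and each genotype held libraries at both ends. Plin1 stood at 1.02, 1.20, 2.31, 3.75 and 5.49 RPKM in KO and 0.654, 0.896, 1.14, 3.55 and 4.13 RPKM in WT soleus, overlapping as widely.

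Marker genes of other cells and fibres, of which none passed, are given beside these values. Over all genes 53.4% had a positive fold change in soleus. The slow myosin Myh7 spanned 549 to 1552 RPKM in KO and 309 to 683 RPKM in WT libraries, with KO mouse 3805666 the highest (549 to 914 RPKM in the other 4). Fast Myh4 spanned 15.1 to 6357 RPKM in KO and 4693 to 10858 RPKM in WT soleus. WT mouse 3793543, which entered the KO range for Cidea, Plin3, Plin5 and Plin2, had the lowest WT Myh4 (4693 RPKM) and the highest WT Myh7 (683 RPKM). The 7 skeletal muscle markers had negative fold changes for 7 of 7 tested genes (median -0.44), and their sum spanned 43410 to 104616 CPM in KO and 89255 to 145806 CPM in WT mice. White adipocyte markers were positive for 11 of 11 (median 0.30, sum 289.9 to 859 CPM in KO and 257 to 667 CPM in WT mice), and macrophage markers for 7 of 7 (median 0.502, sum 51.2 to 124 CPM in KO and 41.3 to 72.0 CPM in WT mice). Brown adipocyte markers were positive for 3 of 4 (median 0.37, sum 239.9 to 433 CPM in KO and 201 to 252 CPM in WT mice). Without KO mouse 3805666 the median was -0.32 for skeletal muscle, 0.05 for white adipocyte (9 of 11 positive), 0.46 for macrophage and 0.20 for brown adipocyte markers (4 of 4 positive). The KO sums then spanned 85967 to 104616 CPM for skeletal muscle, 289.9 to 679 CPM for white adipocyte and 239.9 to 325 CPM for brown adipocyte markers. None of the fibre, fat or macrophage markers was at 0 in all soleus libraries of a genotype. The part of these lists and of the myosins in the members' values was not tested. In the pathway lists 0 genes passed by edgeR. The median was 0.28 over 14 PPAR regulators and targets (11 positive, with log2 fold changes of 0.44 for Cd36 and 0.65 for Fabp3), 0.19 over 9 lipolysis genes (8 positive) and 0.07 over 14 genes of synthesis and droplet formation (10 positive, with log2 fold changes of 0.59 for Agpat2 and 0.54 for Dgat2), against 0.02 over all genes. Without KO mouse 3805666 the medians were 0.23 over the PPAR list, 0.10 over lipolysis and 0.03 over synthesis and droplet formation. Log2 fold changes were then 0.35 for Cd36, 0.43 for Fabp3, 0.51 for Agpat2 and 0.44 for Dgat2.

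**Figure D4:**
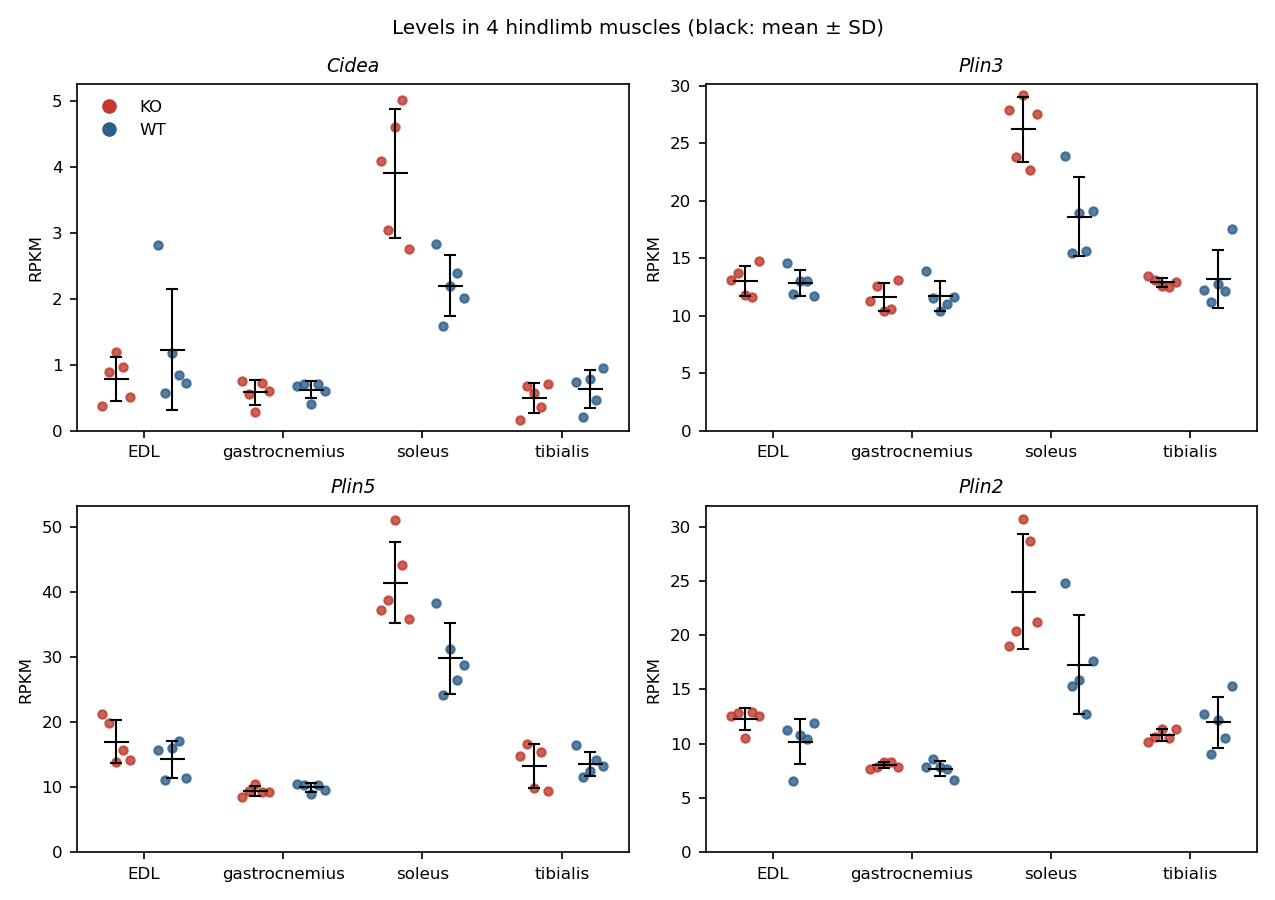
RPKM of Cidea, Plin3, Plin5 and Plin2 in each library of 4 hindlimb muscles, KO left of WT, with mean ± SD in black (n = 5 each). In soleus Plin3 averages 26.2 RPKM in KO and 18.6 RPKM in WT mice, and the genotypes overlap in every muscle.

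The KO-WT difference of soleus was set directly against that of EDL, gastrocnemius and tibialis over 40 libraries. By edgeR 0 of 7 members passed, beside 0% of 13534 genes, with 3 members and 16.4% of genes at an unadjusted p under 0.05. The difference was 0.44 (SE 0.12, edgeR adjusted p = 0.0837) for Plin3, 1.07 (SE 0.36, edgeR adjusted p = 0.129) for Cidea, 0.38 (SE 0.17, edgeR adjusted p = 0.231) for Plin5 and 0.30 (SE 0.15, edgeR adjusted p = 0.319) for Plin2 on the log2 scale. With the mouse as a replicate block, which the design allows because the muscles come from the same animals, Plin3 passed (0.45, edgeR adjusted p = 0.0229). DESeq2 called Plin3 as well (adjusted p = 0.0265), as edgeR did without WT mouse 3793543 (adjusted p = 0.0183) or KO mouse 3793546 (adjusted p = 0.0471). Over all alternatives the adjusted p of Plin3 ran over 0.0183 to 0.357. The shares of all genes that passed in these alternative fits are not given here. Whether Plin3 stood out among all genes in them is therefore not known. Without KO mouse 3805666 the value for Plin3 was 0.38 (edgeR adjusted p = 0.357).

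The other 3 muscles gave members on both sides of 0. In EDL 0 of 7 tested members passed (edgeR, beside 0.00777% of 12875 genes), 0 had an unadjusted p under 0.05 (4.58% of genes did) and DESeq2 called 0. Plin5 stood at 14.0, 14.3, 15.8, 19.9 and 21.2 RPKM in KO and 11.1, 11.4, 15.8, 16.1 and 17.2 RPKM in WT EDL, and Plin2 at 10.5, 12.5, 12.5, 12.8 and 12.9 RPKM in KO and 6.56, 10.5, 10.8, 11.2 and 11.9 RPKM in WT mice, with overlap in both. Cidec stood at 0.526, 3.30, 4.78, 5.77 and 7.22 RPKM in KO and 2.28, 4.87, 5.69, 9.71 and 10.2 RPKM in WT EDL. The lowest KO library, mouse 3779417, was also the lowest for Adipoq at 1.27 RPKM. In EDL 49.2% of all genes had a positive fold change. Of 11 tested white adipocyte markers 0 were positive in EDL (median -0.64, sum 146 to 237 CPM in KO and 159 to 358 CPM in WT mice), beside log2 fold changes of -0.62 for Cidec and -0.97 for Plin1. Their part in these values was not tested.

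Gastrocnemius gave 0 of 7 by edgeR, beside 0.00792% of 12624 genes, 0 by DESeq2 and 0 at an unadjusted p under 0.05, beside 1.95%. Plin4 stood at 101, 121, 121, 127 and 128 RPKM in KO and 107, 109, 111, 128 and 133 RPKM in WT mice there, and Plin2 at 7.70 to 8.33 RPKM in KO and 6.63 to 8.57 RPKM in WT mice. Tibialis gave 0 of 7 by edgeR, beside 0.00810% of 12348 genes, 0 by DESeq2 and 1 at an unadjusted p under 0.05, beside 1.77%. That member was Cidec, at 2.48, 3.18, 3.94, 4.34 and 7.04 RPKM in KO and 1.90, 2.42, 2.61, 3.29 and 3.44 RPKM in WT mice, with a log2 fold change of 0.62 (SE 0.26, edgeR adjusted p = 1). The groups overlapped, and Adipoq spanned 3.14 to 9.68 RPKM in KO and 3.16 to 7.25 RPKM in WT tibialis. White adipocyte markers were positive for 10 of 10 tested genes in tibialis (median 0.36, sum 214 to 299.7 CPM in KO and 196 to 286 CPM in WT mice), and their part in the value of Cidec was not tested. Over all genes 49.3% were positive there.

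Heart and lung each held 1 member at an unadjusted p under 0.05, Plin4 in both, and 0 of 8 that passed by edgeR or DESeq2, beside 0% of 13438 genes in heart and 0% of 15172 in lung. At an unadjusted p under 0.05 stood 3.13% of genes in heart and 2.06% in lung. In heart Plin4 had a log2 fold change of 0.15 (SE 0.05, edgeR adjusted p = 0.999), from the values above, where the lowest KO heart lay within the WT range. In lung it stood at 4.07, 4.10, 4.12, 4.61 and 5.04 RPKM in KO and 3.38, 3.63, 3.74, 3.89 and 4.18 RPKM in WT mice, where 1 WT library entered the KO range, with a log2 fold change of 0.22 (SE 0.08, edgeR adjusted p = 1). Cidec stood at 9.54, 10.7, 11.2, 12.6 and 15.3 RPKM in KO and 8.85, 9.96, 10.1, 11.4 and 12.3 RPKM in WT mice, which overlapped. White adipocyte markers were positive for 7 of 9 tested genes in heart (median 0.21) and 10 of 11 in lung (median 0.12), and their part in the values of Plin4 was not tested. Over all genes 49.9% were positive in heart and 51.7% in lung.

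In liver Plin1 and Cidea had too few reads to test, and 0 of 6 members passed by edgeR (beside 0% of 12357 genes) or DESeq2, with 0 at an unadjusted p under 0.05 (beside 1.57%). Cidec, a gene known from fatty liver, stood at 1.11, 1.501, 1.59, 2.12 and 10.1 RPKM in KO and 1.39, 1.75, 2.46, 2.83 and 4.26 RPKM in WT livers, with a log2 fold change of 0.35 (SE 0.67, edgeR adjusted p = 1). The highest library, KO mouse 3805676, also had the highest Plin2 and Plin4 of the 10 livers, and without it the value of Cidec was -0.62. Plin5 was highest in WT mouse 3793553 at 61.2 RPKM, with KO mouse 3805676 next at 58.3 RPKM. Cideb stood at 166, 168, 181, 189 and 197 RPKM in KO and 169, 176, 179, 179.8 and 184 RPKM in WT livers, with overlap.

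Spleen had reads enough to test 3 members, Plin2, Plin3 and Plin4, and 0 passed by edgeR (beside 0% of 13952 genes) or DESeq2, with 0 at an unadjusted p under 0.05 (beside 0.846%). Plin4 stood at 0.193, 0.276, 0.301, 0.308 and 3.08 RPKM in KO and 0.169, 0.235, 0.341 and 0.429 RPKM in WT spleens, with a log2 fold change of 1.53 (SE 0.92, edgeR adjusted p = 1), or -0.20 without KO mouse 3817943. In that library Cidec was at 10.95 RPKM and Plin1 at 2.87 RPKM, and the white adipocyte markers summed to 181 CPM, against 52.0 to 54.9 CPM in the other 4 KO and 49.9 to 53.9 CPM in the 4 WT spleens. Plin2, at 19.5, 27.6, 29.1, 30.8 and 32.5 RPKM in KO and 16.4, 23.0, 27.5 and 32.5 RPKM in WT spleens, was lowest of the KO group in this library.

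Kidney is described without a test, because Cidec and Plin4 there guided the choice of the genes. Cidec stood at 9.85, 10.1, 10.6, 12.7 and 14.2 RPKM in the 5 KO kidneys and 6.43, 6.45, 7.08 and 8.33 RPKM in the 4 WT kidneys, so that every KO value lay above every WT value. Plin4 stood at 2.70, 3.21, 3.23, 4.31 and 4.94 RPKM in KO and 1.68, 1.84, 2.47 and 2.55 RPKM in WT kidneys, also apart. The log2 fold changes were 0.66 (SE 0.11) for Cidec and 0.75 (SE 0.19) for Plin4. These values led to the choice of the genes, and nothing is read from their separation. By edgeR, which is another criterion than separate ranges, 0% of 14274 genes were called in kidney.

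Plin1 stood at 2.79, 3.12, 3.26, 5.19 and 5.67 RPKM in KO and 2.38, 2.45, 2.52 and 3.25 RPKM in WT kidneys, with a log2 fold change of 0.55 (SE 0.21). Plin2 stood at 69.4, 83.9, 103, 127 and 189.7 RPKM in KO and 53.4, 79.8, 97.3 and 97.5 RPKM in WT kidneys, with a log2 fold change of 0.44 (SE 0.32). Plin5 stood at 5.62, 5.63, 5.81, 6.43 and 7.30 RPKM in KO and 4.23, 4.43, 5.31 and 5.81 RPKM in WT kidneys, with a log2 fold change of 0.27 (SE 0.11). All 3 overlapped between the genotypes, and KO mouse 3805676 was the highest for Plin2 and Plin5 but the lowest KO kidney for Plin1 and Cidec.

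Cideb, Cidea and Plin3 overlapped too. Cideb stood at 119, 122, 131, 132 and 143 RPKM in KO and 123, 138, 144 and 146 RPKM in WT kidneys, Cidea spanned 8.001 to 12.5 RPKM in KO and 8.68 to 11.8 RPKM in WT mice, and Plin3 18.5 to 22.2 RPKM in KO and 17.0 to 20.6 RPKM in WT mice.

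Levels of white fat genes are given beside those of Cidec and Plin4. Of 11 tested white adipocyte markers 11 had a positive fold change (median 0.502), where 49.9% of all genes did. Their sum spanned 241 to 309 CPM in KO and 194 to 234 CPM in WT kidneys, without overlap. None of the 12 genes was at 0 in all libraries. The share of all genes with separate ranges was not counted. Of this sum Adipoq gave 9.78 to 12.9 CPM in KO and 6.69 to 10.6 CPM in WT kidneys, with overlap. The same list summed to 674 to 791 CPM in KO and 725 to 850 CPM in WT hearts, whose mean Adipoq was lower. It summed to 49.9 to 53.9 CPM in WT spleens with 3 to 8 Adipoq reads, so it is no measure of fat cells alone. Adipoq stood at 7.93, 8.81, 9.31, 10.3 and 10.4 RPKM in KO and 5.43, 5.51, 6.28 and 8.63 RPKM in WT kidneys. The ratio of mean Cidec to mean Adipoq was 1.23 in KO and 1.09 in WT kidneys, and that of Plin1 0.428 in KO and 0.410 in WT. Brown adipocyte markers, whose sums are given above, had 2 of 5 tested genes positive. Macrophage markers summed to 110.4 to 129 CPM in KO and 105 to 118 CPM in WT kidneys. The part of white fat cells in the values of Cidec, Plin4 and Plin1 was not tested. Among pathway genes, Pdk4, which shifts cells from glucose to fat, had a log2 fold change of 0.59 and Lipe, which is also on the white adipocyte list, had 0.25, while the medians were 0.05 over 14 PPAR regulators and targets (13 positive), 0.07 over 10 lipolysis genes (8 positive) and 0.02 over 15 genes of synthesis and droplet formation (9 positive).

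**Figure D5:**
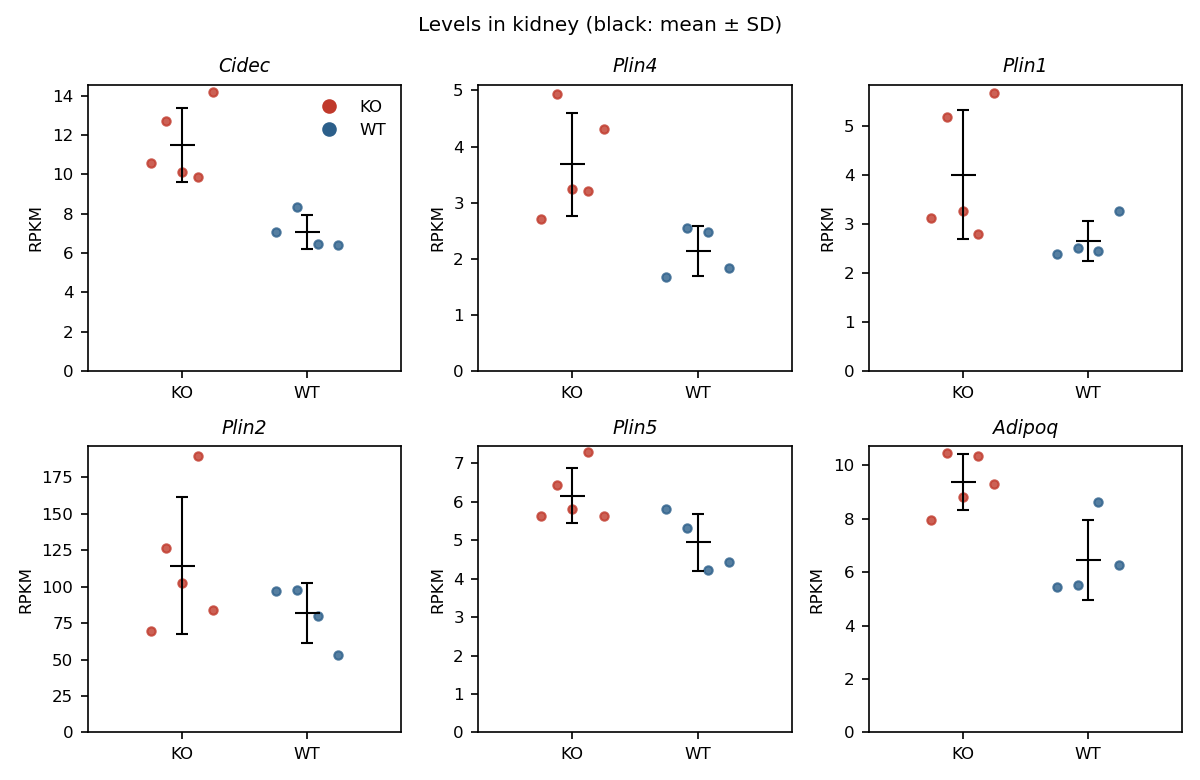
RPKM of Cidec, Plin4, Plin1, Plin2 and Plin5 and of the fat cell gene Adipoq in each kidney library, KO (n = 5) left of WT (n = 4), with mean ± SD in black. Cidec and Plin4 lie apart between the genotypes, the other 4 genes overlap, and Adipoq averages 9.37 RPKM in KO and 6.47 RPKM in WT kidneys.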

How the data were processed

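Bulk RNA was sequenced by mouse and tissue, in groups that the labels give by genotype and tissue, and mice are separate animals. Per the labels, the kits select polyadenylated RNA and keep the strand. The genome build was mm10, per the submitters' processing notes. The sources used here do not name the aligner or the counter. The authors deposited expected counts per gene, 85.7% of them whole, rounded here to whole numbers. A further 22 rows that hold markers, up to 0.0323% of a library, were left out. They also deposited RPKM of the same counts, used here for levels.

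Fits used edgeR 4.0.16 in R 4.3.3 (robust quasi-likelihood F test, TMM factors, filterByExpr at counts of 10 and 15), with Benjamini-Hochberg adjustment over all genes tested and a threshold of 0.05. KO and WT were compared within a tissue, and tissues within a genotype over all 9 tissues. Alternatives were DESeq2 1.42.0 (its factors or its Wald test), all genes with at least 1 read, age in days, the mouse as a replicate block, each mouse left out, and TMM-scaled CPM for levels. A fit of only the tissues compared, ratios of mean RPKM, and lists and correlations without a library that stands apart were added after seeing the data. The numbers pair libraries because tissues come from the same mouse, and their deviations had a mean correlation of 0.0655 in KO and 0.0821 in WT mice, against -0.0164 in KO and -0.0203 in WT mice between different mice. The fits were tested on simulated data. DESeq2 gave Plin4 no adjusted p in heart and liver comparisons of KO mice.

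Members and lists were chosen with earlier results of these data known. The text names the members, Cdh15, marker genes, up to 3 called genes of a pathway list in each tissue comparison (by fold change), up to 2 in each KO-WT comparison (by p) and the 3 genes most like each member, except a few that are not reported here. Myh7, Nop9 and genes overlapping a member were named after their values were seen. Trarg1 was matched as Tusc5, Ldaf1 had no match, and Lipe and Ppara stand on 2 lists each. Counting intervals and floors cover counting error only.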

Additional observations from a re-analysis of the deposited data

Results flagged for a closer look

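In 11 of 123 groups of 4 or 5 libraries with a mean of at least 10 reads, 1 library lay apart from the rest by Dixon's test on log2(CPM + 0.5). Chance flags about 1 in 20 groups. KO spleen 3817943 held the highest Plin1 at 2.87 RPKM (other KO spleens 0 to 0.0854), Plin4 at 3.08 RPKM (0.193 to 0.308) and Cidec at 10.95 RPKM (0 to 0.233). The lung of the same mouse had the lowest KO Plin3 at 32.4 RPKM (34.2 to 34.9). KO liver 3805676 had Cidec at 10.1 RPKM (other KO livers 1.11 to 2.12), and WT liver 3793553 had Plin5 at 61.2 RPKM (other WT livers 38.9 to 41.2). In EDL, Plin2 was lowest in KO mouse 3805666 at 10.51 RPKM (other KO mice 12.5 to 12.9) and in WT mouse 3793553 at 6.56 RPKM (other WT mice 10.47 to 11.9). Plin4 was lowest in KO gastrocnemius 3779417 at 101.2 RPKM (121 to 128). WT mouse 3817948 had Plin3 at 17.0 RPKM in kidney (other WT kidneys 20.3 to 20.6) and Cideb at 2.20 RPKM in heart (other WT hearts 1.44 to 1.57).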

How the results depend on the processing

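Counts of called members stayed within 1.5 times in 180 of 185 alternatives. The count of called members for KO against WT in soleus was 1 by DESeq2's Wald test, against 0 by edgeR. For the KO-WT difference of soleus against the other muscles it was 1 by DESeq2's Wald test and 1 with the mouse as a replicate block, and 0 to 1 with a mouse left out. The shares of all genes called in these alternatives are not given here. The block changed no other call. With a mouse left out, Cidec in KO against WT liver ran over -0.62 to 0.60 and Plin4 in spleen over -0.20 to 1.78 on the log2 scale. Plin1 in heart against skeletal muscles ran over -0.74 to 0.32 in KO and -0.70 to 0.21 in WT mice, and in soleus against the other muscles over -0.077 to 0.56 in WT mice. None of these passed, and the cause was not tested. Cidec in liver against kidney of WT mice passed in a fit of only those tissues (-0.86, edgeR adjusted p = 0.00717, with 0.00717 to 0.367 over all alternatives). TMM-scaled CPM moved 8 of 9 tissue ranks for Plin3, 7 for Plin2, 6 for Plin1, 5 for Cidea, 4 for Cidec, 2 each for Plin4 and Cideb and 0 for Plin5. The ratio of mean deposited RPKM, added after seeing the data, turned the sign of Plin3 in liver against kidney (-0.26 in KO and -0.31 in WT mice), of Plin1 in heart (0.25 in KO and 0.20 in WT) and of Plin4 in KO soleus (0.10). At these depths a member under 3 reads in a library could not be told from 0.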
